A study of Mus musculus with 2 samples.

Results

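Marcks was the gene named most often in a list of binding sites of the transcription factor Foxp4, and every one of its sites lay far upstream of the gene. The set described here holds the peaks that the deposited list assigns to Marcks and any peak whose midpoint lay within 100 kb of the gene body. It came to 10 of 3317 peaks. All 10 were named Marcks, and 1 of them also met the distance rule. The members were chosen by measured peak positions and the gene names given to them, so their number, spacing and distance are given as a description with no test.

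The sites were mapped by chromatin immunoprecipitation and sequencing (ChIP-seq) in stromal vascular fraction cells, the mixed non-adipocyte cells of fat tissue, taken from inguinal white fat of C57BL/6 mice. After 3 days in 20% serum, the cells had 48 h in 10% serum with 1 µM dexamethasone, 50 nM T3, 5 µM troglitazone, insulin at 5 µg/ml and isobutylmethylxanthine at 0.5 mM, to start conversion to beige adipocytes. The series has 1 library made with a Foxp4 antibody and 1 library of input DNA from cells handled in the same way. The peaks are those of the antibody library, so no value below has a replicate error, and read depth is unknown. The genotype is that of the C57BL/6 strain, with no transgene or deletion named in the labels, and animal age and number are not given in the sources used here. Which cells of the mixture carried the sites was not tested.

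Foxp4 is a forkhead protein, a family whose members bind DNA through a winged helix and favour sequences related to TGTTTAC. Foxp1, Foxp2 and Foxp4 pair with each other through a leucine zipper and act largely as repressors. Marcks encodes the myristoylated alanine-rich C kinase substrate, which lies against the inner face of the cell membrane, holds the lipid PIP2 and binds actin. Protein kinase C and calmodulin release it from the membrane, so it links signalling to the cell cortex, to movement and to secretion.

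The Marcks gene lies on the minus strand of chromosome 10, at chr10:37133243-37138926 in mm10, and is 5.7 kb long. Its start site is therefore the high end, 37138926, and upstream means higher coordinates. The nearest Foxp4 peak lay 70.8 kb upstream and the farthest 488.3 kb upstream. No peak lay inside Marcks, at its start site or downstream of it within 100 kb.

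The upstream side opens with a long non-coding RNA gene, 5930403N24Rik (chr10:37139532-37151985), whose start site lies 606 bp from that of Marcks and which runs the opposite way. Another 3 long non-coding RNA genes lie within the stretch of peaks: Gm26535 (chr10:37319505-37338948), Gm31202 (chr10:37360698-37364361) and Gm31330 (chr10:37430435-37436975). No peak of the list is named for any of them, although each member lies nearer to a start site of theirs than to that of Marcks. That absence thus rests on the annotation set used for the list.

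Start-site windows of 250 bases before and 50 bases after a start are shown for the start of 5930403N24Rik nearest to Marcks, 1 of its 3 starts in the table, and for both starts of Gm26535, since the highest Marcks peak and the peak nearest to any start site lie next to the latter. The sequences are RefSeq's, build GRCm38.p6, plus strand, and capitals mark a forkhead core motif.
5930403N24Rik start nearest to Marcks, chr10:37139282-37139581: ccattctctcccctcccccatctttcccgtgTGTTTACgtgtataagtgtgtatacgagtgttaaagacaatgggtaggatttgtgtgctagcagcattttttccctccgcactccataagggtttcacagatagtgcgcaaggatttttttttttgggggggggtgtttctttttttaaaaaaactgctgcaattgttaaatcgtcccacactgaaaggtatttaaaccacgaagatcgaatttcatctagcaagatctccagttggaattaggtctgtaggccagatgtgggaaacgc
Gm26535 outer start, chr10:37319255-37319554: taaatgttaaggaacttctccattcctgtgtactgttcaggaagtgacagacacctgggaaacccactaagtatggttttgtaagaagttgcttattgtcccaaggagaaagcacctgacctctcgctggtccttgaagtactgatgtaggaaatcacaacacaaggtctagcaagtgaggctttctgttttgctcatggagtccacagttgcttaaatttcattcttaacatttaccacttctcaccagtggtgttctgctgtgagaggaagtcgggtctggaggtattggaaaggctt
Gm26535 inner start, chr10:37332981-37333280: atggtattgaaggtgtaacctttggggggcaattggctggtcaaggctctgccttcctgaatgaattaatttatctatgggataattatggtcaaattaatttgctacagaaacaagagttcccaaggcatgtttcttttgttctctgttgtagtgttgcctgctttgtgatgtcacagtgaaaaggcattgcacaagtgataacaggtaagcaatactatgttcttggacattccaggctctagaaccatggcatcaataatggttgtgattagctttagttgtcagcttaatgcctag

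The windows were searched on both strands for 4 forkhead motifs. These were TGTTTAC, the related motif TATTTAC, a further related motif that reads TGTTTGC and, as a shorter form that overlaps the first of these, TGTTTA. The 5930403N24Rik window nearest to Marcks holds TGTTTAC at its bases 32 to 38, which is 387 bp upstream of the Marcks start site. The other 2 windows of this gene, not printed (chr10:37140820-37141119 and chr10:37142220-37142519), hold none of the motifs. The 2 Gm26535 windows hold none of the motifs. Over the 7 start-site windows of the 4 non-coding genes, 2 hold a 7-base motif, the other being TGTTTGC at Gm31202. Among all 32851 windows of the table, 3.65% hold TGTTTAC, 3.04% and 5.07% the related motifs in the order given, and 13.4% the shorter form, while 11.2% hold any of the 7-base motifs. The 2 windows with a 7-base motif are 43.0% and 41.0% G and C, below the lower quartile of all windows, 45.7%. The Gm26535 windows (44.0% and 40.0%) and the Gm31330 window (39.3%) are also below it and hold no motif. Whether base content bears on the motif counts was not tested. The start-site window of Marcks itself is not in the table and was not searched. No peak overlaps the 3 windows of 5930403N24Rik. The bases under the peaks themselves were not analysed here.

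Each peak carries a whole-number score from the authors' processing, whose scale no source used here states. A higher score ranks a peak higher within this list, and scores were used for that only. Walking away from Marcks, the first peak (chr10:37209390-37210009) scored 76. It is separated from the gene by 70.8 kb and from the next peak by 70.3 kb, and at 620 bp it is 1 of the 2 widest of the set.

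A group of 4 peaks followed, spread over 54.0 kb. The peak at chr10:37279777-37280141, 141.0 kb upstream, scored 98 and was annotated as lying on a (CAA)n repeat. The peak at chr10:37292207-37292546, 153.4 kb upstream, scored 30 and lay on a (TTTG)n repeat. Both repeats are simple tandem repeats, and they are the only members with a repeat annotation.

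The highest of the 10 came next, at chr10:37313376-37313880 and 174.7 kb upstream, with a score of 193. That score ranked 284 in the whole list, above 91.3% of the peaks, and 22 among those of chromosome 10. Its midpoint lay 5.9 kb before the outer start site of Gm26535. The last of the group, at chr10:37333741-37334086 and 195.0 kb upstream, scored 65 and lay inside the Gm26535 gene, with its nearer edge 510 bp past the inner start site. The list calls this peak intergenic, so the annotation set behind the list and the RefSeq table differ here. The group thus holds the highest member beside 1 of the 2 lowest.

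Beyond Gm26535 the peaks thinned out. A pair followed at 261.6 and 283.8 kb upstream. The former (chr10:37400303-37400675) scored 15, the lowest of the set and above only 0.181% of the list. The latter (chr10:37422568-37422969) scored 70 and lay 7.7 kb from the Gm31330 gene. The next peak stood alone at 365.8 kb upstream (chr10:37504582-37504903), with a score of 92, the third highest of the 10.

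The outermost pair lay 477.5 and 488.3 kb upstream, at chr10:37616063-37616698 and chr10:37627113-37627420. These peaks scored 72 and 68 and were 636 and 308 bp wide, the widest and the narrowest of the set. The 10.9 kb between them is the shortest gap of the stretch. The gap before this pair, 111.6 kb, is the longest.

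**Figure D1:**
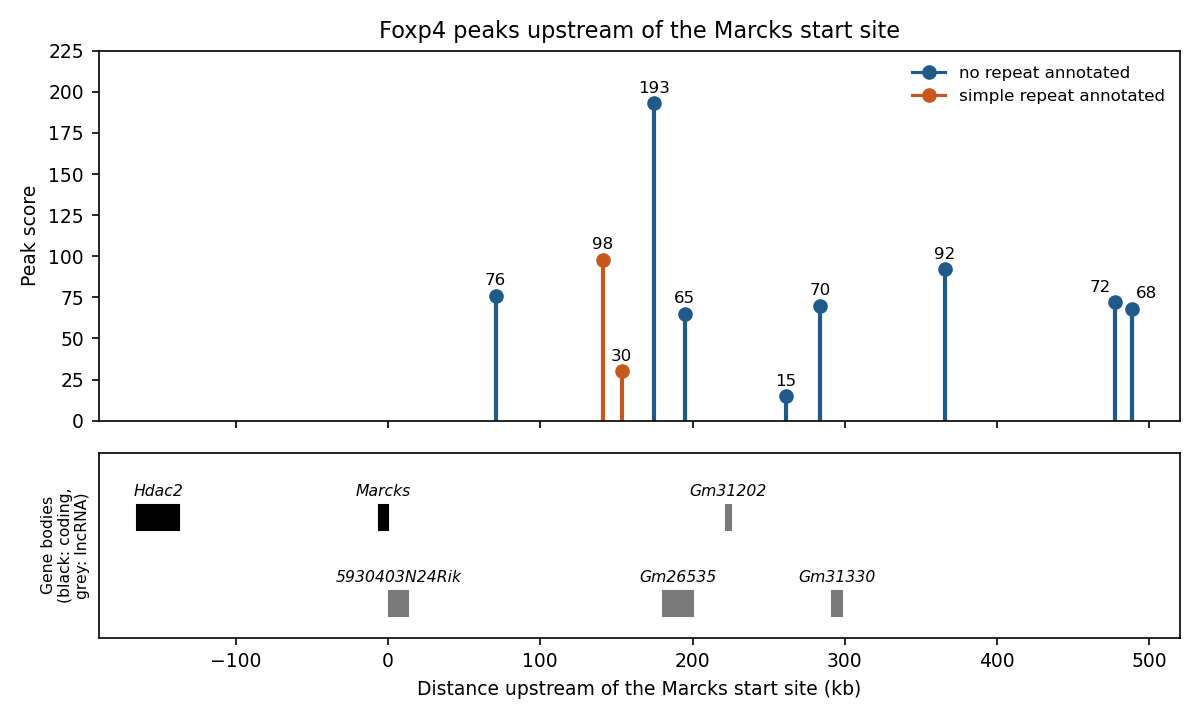
Top, score of each of the 10 Marcks peaks (y axis) against its distance upstream of the Marcks start site in kb (x axis), orange where a simple repeat is annotated. Bottom, gene bodies on the same axis. The peaks run from 70.8 to 488.3 kb upstream, and the highest, at 193, stands just before Gm26535.

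In all, 5 of the 9 gaps between neighbouring midpoints were at most 25 kb and the other 4 were over 50 kb, which splits the stretch into 5 groups of 1, 4, 2, 1 and 2 peaks. The median gap was 22.3 kb, and all 9 gaps were shorter than 292.8 kb, the median of the 3296 gaps between neighbouring peaks over all chromosomes. No 2 members lay within 10 kb of each other. Their median width was 369 bp (range 308 to 636), against 393 bp for the whole list, so the members are separate peaks of usual width.

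From the first to the last base the stretch covered 418.0 kb and held 23.9 peaks per Mb, against 1.86 on chromosome 10 and 1.34 on the 19 autosomes, the last 2 taken over the span of annotated genes. Windows of 418.0 kb were laid from the start of each of the 3317 peaks, and their median content was 2 peaks. At least 10 peaks were found in 6 of these windows (0.181%), which belong to 3 places. One is the Marcks stretch, and the others, each with up to 11 peaks, hold the genes Mir21a on chromosome 11 and Rn4.5s on chromosome 6. The window length and the limit of 10 were taken from the Marcks set itself. Its place among the 3 was therefore fixed in advance, and its density is that between its own outermost peaks.

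Empty sequence lay on both sides of the stretch. Towards lower coordinates the next peak was 2.74 Mb away, at chr10:34464196-34464540, with a score of 45 and named for Frk, a Src-related tyrosine kinase gene. Among other genes, that empty part includes Marcks itself and the Frk gene body (chr10:34483400-34611232). It also includes Hdac2, which encodes a histone deacetylase (chr10:36974297-37001889), and Hs3st5, which encodes a heparan sulfate sulfotransferase (chr10:36506590-36834397). No peak lay inside Frk, and none lay in or was named for Hdac2 or Hs3st5. The member nearest to Hdac2 was 207.8 kb from it, with Marcks in between.

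Towards higher coordinates the next peak was 1.37 Mb away, in an intron of Lama4, a laminin chain gene (chr10:38994936-38995390, score 112). Among 3258 distances between neighbouring autosomal peaks, 5.83% were as long as the lower empty part and 14.9% as long as the upper one. Taken singly, empty parts of such length were thus not rare in this list.

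**Figure D2:**
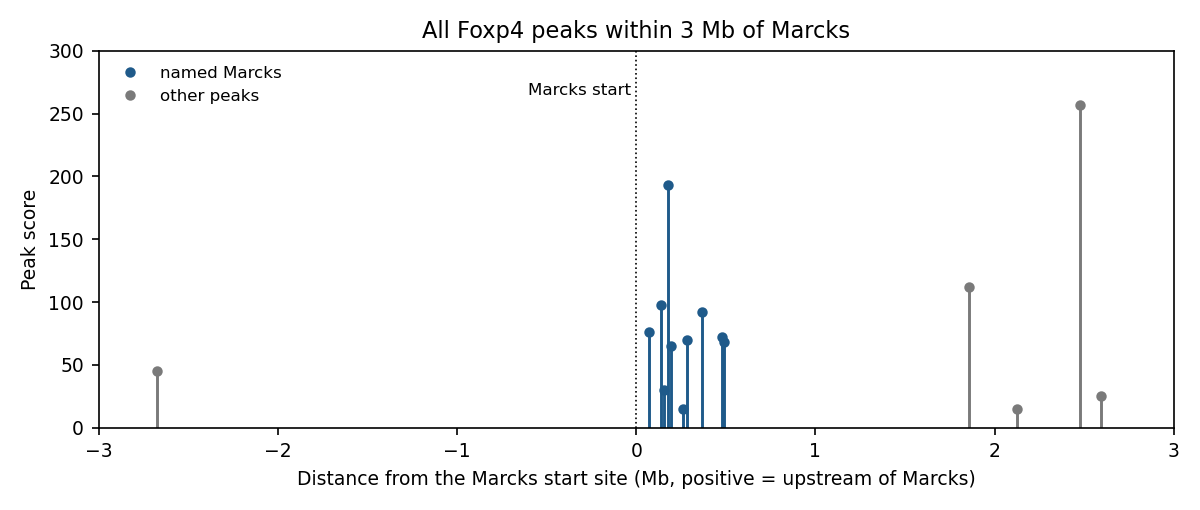
Score (y axis) of every peak within 3 Mb of the Marcks start site against its distance from that site in Mb (x axis), with Marcks peaks in blue and others in grey. The 10 Marcks peaks stand as an island between a Frk peak 2.74 Mb below the lowest of them and a Lama4 peak 1.37 Mb above the highest.

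The next protein-coding gene upstream of Marcks is Rfpl4b (chr10:38820541-38821779), a member of the ret finger protein-like family. The interval between the Marcks and Rfpl4b gene bodies is 1.68 Mb long. All 10 members lay in the part of this interval next to Marcks, the farthest at 29.0% of its length, and the remaining 1.19 Mb up to Rfpl4b held no peak. A further 2 non-coding genes lie within 500 kb past the stretch, Gm46220 and Gm31378, at 432.1 and 488.7 kb from the last member, and have no peak.

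Intervals of at least 1 Mb between neighbouring coding genes numbered 258 on the autosomes. Their median content was 0 peaks (quartiles 0 to 1), and 149 held none. Stretches where reads cannot map were not removed from these intervals, and their effect on this count was not tested. The Marcks interval, with 10, held the most of the 258, and also the most of all 18558 autosomal intervals of any length. By density it ranked behind 2 of the 258, with 5.95 peaks per Mb against 8.31 between Plpp3 and Usp24 and 6.19 between Adamts5 and N6amt1. The Marcks interval was picked because of its number of peaks, so this rank has no test.

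**Figure D3:**
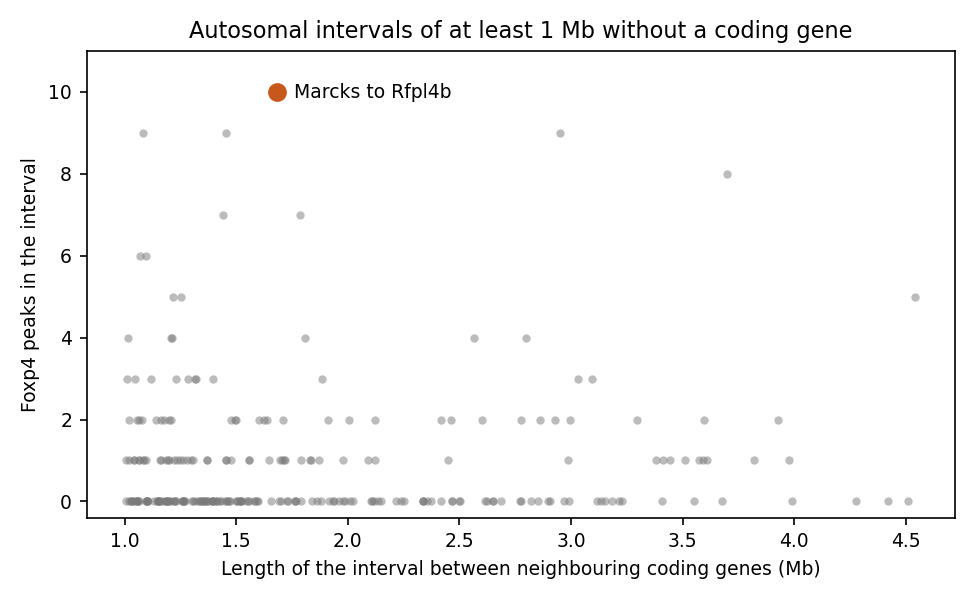
Number of Foxp4 peaks (y axis) in each of the 258 autosomal intervals of at least 1 Mb between neighbouring coding genes, against interval length in Mb (x axis). The interval from Marcks to Rfpl4b, in orange, holds 10 peaks in 1.68 Mb, and 149 intervals hold none.

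The scores of the members ran from above 0.181% to above 91.3% of the list, with several close together near its middle. In ascending order they were 15, 30, 65, 68, 70, 72, 76, 92, 98 and 193. Their median was 71 (interval from order statistics, of at least 95%, 30 to 98) and their quartiles 65.8 and 88. The whole list had a median of 65 and wider quartiles, 41 and 104.

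Above the median of the list lay 7 members, 1 was equal to it and 2 were below, against 49.3% of all peaks above it. The 227 other peaks of chromosome 10 had a median of 60 (quartiles 39 to 109). The 782 other intergenic peaks over 50 kb from a start site, the sites most like these by position, had a median of 62 (39 to 100). The interval of the members' median includes all 3 values. It treats neighbouring peaks of 1 library as independent draws, which they are not, so it is no test. With 1 library these differences could not be tested. The Marcks stretch holds many peaks of ordinary score, and its highest, at 193, ranked 284 among the 3317 peaks of the list.

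**Figure D4:**
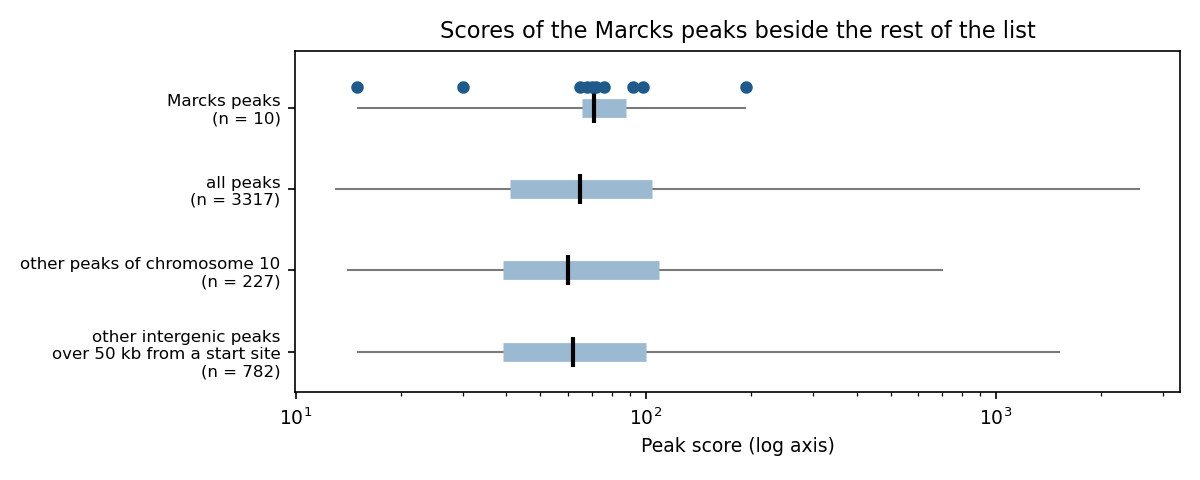
Peak score (x axis, log scale) of the 10 Marcks peaks (points) and of 3 comparison sets. Thin lines run from the lowest to the highest score, thick bars from the lower to the upper quartile, and ticks mark medians. The members' median of 71 lies beside medians of 65, 60 and 62.

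All 10 members were annotated as intergenic, as were 50.5% of all peaks. A repeat was annotated at 2 of the 10 (20.0%, exact 95% binomial interval 2.52 to 55.6) and at 23.3% of the list (21.8 to 24.8). Both were simple repeats, a class annotated at 8.59% of the list. With 10 members the interval is too wide to tell these shares apart. The interval covers counting error over the peaks of this library only.

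The 2 repeats are spelled (CAA)n and (TTTG)n, and read on 1 of the strands both have units of T bases ending in a G. The member on (CAA)n, with a score of 98, was below 48 of the 82 other peaks on the same unit, counting both spellings (CAA)n and (TTG)n, whose median was 120. The member on (TTTG)n, with a score of 30, was below 89 of 92 others, counting (CAAA)n as well, whose median was 97.5. Neither of the 2 members stood high among the peaks on its repeat, and the highest member, at 193, has no repeat annotated.

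The count of 10 put Marcks at the head of 2462 named genes. A single peak was named for 1908 of these genes (77.5%), and 4 genes followed Marcks with 9 peaks each: Adamts5, Mir21a, Pik3r1 and Rn4.5s. After them the highest count was 6. Adamts5 encodes a protease that cuts proteoglycans, and Pik3r1 the regulatory subunit of phosphoinositide 3-kinase.

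The peaks named for Adamts5 and Pik3r1 were spread over 460.3 and 582.2 kb, of the same order as the 418.0 kb at Marcks. Upstream of the start site lay 10 of 10 peaks at Marcks, 8 of 9 at Adamts5 and 7 of 9 at Pik3r1. The closest peak was 20.0 kb from the start site at Adamts5 and 11.2 kb at Pik3r1, against 70.8 kb at Marcks. Their median scores were 55 and 53, and their highest scores 511 and 109.

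Mir21a, a microRNA gene, and Rn4.5s, annotated as a ribosomal RNA gene in the list, had compact sets over 53.5 and 125.4 kb. Their closest peaks lay within 0.5 kb and 0.0 kb of the start site, and all 9 of each lay within 100 kb. Marcks had 1 of 10 in that range, as Adamts5 had 1 of 9. Of the 5 genes, Marcks had the longest distance between its start site and the closest peak.

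**Figure D5:**
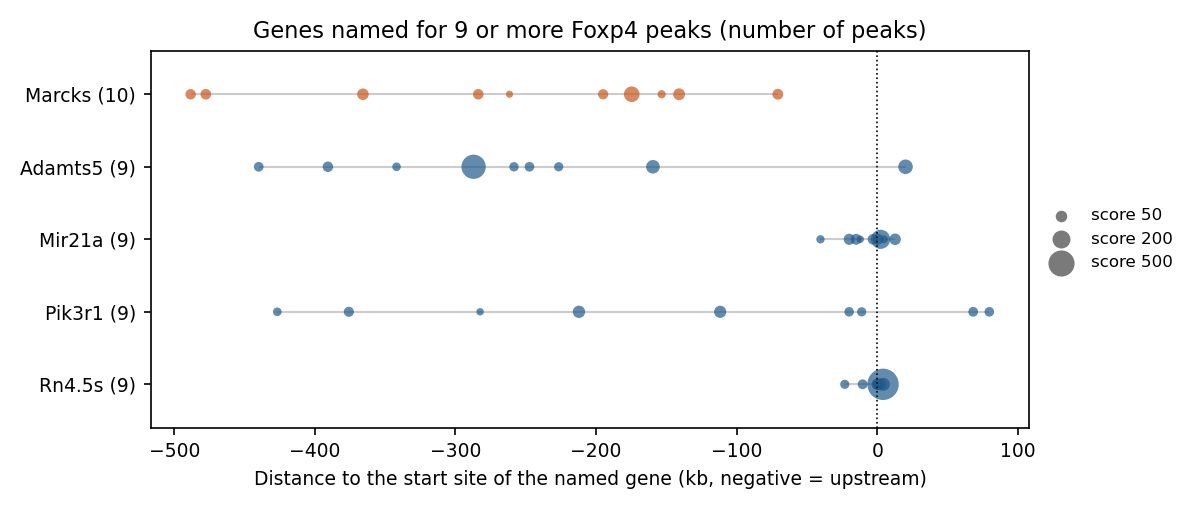
Distance of each peak to the start site of its named gene in kb (x axis, negative upstream) for the 5 genes named for 9 or more peaks, with larger points for higher scores. The Marcks row starts at 70.8 kb upstream and extends to 488.3 kb, whereas the Mir21a and Rn4.5s rows gather around 0.

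The name Marcks rests on the annotation set used for the list. The nearest protein-coding gene body was that of Marcks for all 10 peaks. When genes of every type in the RefSeq table were allowed, Marcks was nearest to 0 of the 10. The nearest gene body was then Gm31330 for 5, Gm26535 for 4 and 5930403N24Rik for 1. By start sites, with that of Marcks added to the RefSeq start-site table, the nearest was again Gm31330 or Gm26535 for 4 peaks each and Gm31202 and 5930403N24Rik for 1 each. Which of these genes, if any, the sites act on was not measured.

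Genes that act on Marcks or resemble it were looked up in the same way. A list of 39 genes held the protein kinase C family, phospholipases, calmodulins, myristoyltransferases, lipid kinases and related membrane proteins. At least 1 peak was named for 6 of them (15.4%, exact 95% binomial interval 5.86 to 30.5), against 9.10% of 21900 protein-coding genes, a background inside that interval. The other 33 had none, among them Marcksl1, the closest relative of Marcks.

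Among the kinases, Prkch, a protein kinase C isoform, had 2 peaks, the higher with a score of 363 in intron 10 on a (CA)n repeat, 157.6 kb past the start site. Prkcq, another isoform, had 1, with a score of 52 at 234.7 kb upstream. Basp1 encodes a membrane protein that, like Marcks, gathers PIP2. It had 3 intergenic peaks with scores from 54 to 62, the closest at 99.6 kb and the highest 143.8 kb past the start site. Prkch and Prkcq likewise had no peak closer than 137.5 and 234.7 kb, so distal sites alone were not particular to Basp1.

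Of the phospholipases, which cut membrane lipids, Plce1 had a peak of score 67 in intron 1 on a (CAAA)n repeat, 32.1 kb past the start site. Plcb4 had 1 of score 25 in intron 1, 52.6 kb upstream of the start site that the list uses. Pld1 had 2 peaks, of score 75 at 3.0 kb past its start site, in intron 1, and of score 49 at 1.2 kb before it. No kinase, phospholipase or other gene of the list had more than 3 peaks. Marcks, with 10, was picked for its number of peaks, so this contrast is no result about the listed genes.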

How the data were processed

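Samples were grouped by their titles. The deposited list of peaks, each with a score, came from a narrowPeak file that the authors annotated on mm10 with annotatePeaks.pl of HOMER, per the file headers. The submitters' processing notes name MACS2, Bowtie2, SAMtools, Picard and deepTools 3.3.0 without roles. Peak settings and the use of the input are not given in the sources used here, and both could change which repeats and weak peaks are listed. All 3317 peaks were kept and 1 closing line without a peak was dropped. Midpoints, distances, gaps and intervals were computed with Python 3.11.15, pandas 2.3.3 and SciPy 1.17.1, and the counting steps were tested on simulated data. Genes and start-site windows came from RefSeq tables of GRCm38.p6, the assembly behind mm10. The start site implied by the distance of each member equals the Marcks gene end in that table. Named genes were Marcks, genes in or within 500 kb of the stretch, the bordering coding genes, the genes with most peaks (4 tied for the next place) and listed genes with a peak. Frk and Lama4 were added for the neighbouring peaks, and the intervals named beside that of Marcks after their values were seen. The members and lists were chosen with earlier results of these data known. No test was made, since there is 1 library per group.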

Additional observations from a re-analysis of the deposited data

How the results depend on the processing

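The set held 8 to 10 peaks under each score limit, window and merging distance tried. Its median score, 71, was 72 and 74 under the score limits, which drop its lowest peaks. The span of 418.0 kb did not change with either score limit. The number of peaks near the gene body depended on the window: 1 within 100 kb, 0 within 50 kb, 5 within 200 kb and 10 within 500 kb. The number of peaks assigned to Marcks fell from 10 to 0 by nearest gene body of any type. It was also 0 by nearest start site of the RefSeq table, an alternative chosen after seeing the data. That table lacks the Marcks start site, which alone would give 0. With the Marcks start site added, the number was still 0. In both assignments, non-coding genes that lie closer take the peaks. The density of 23.9 peaks per Mb was 20 in a window of 500 kb and 10 over 1 Mb around the middle of the stretch, since both windows add empty sequence. No paired analysis was possible because each group has 1 library. Read depth is unknown and limits every score.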

Other observations

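Counting peaks by interval between coding genes brought out places that counting by gene name does not. After the Marcks interval, 3 autosomal intervals of at least 1 Mb held 9 peaks each. They lie between Nmbr and Cited2 on chromosome 10 (2.95 Mb, 3.05 peaks per Mb), between Adamts5 and N6amt1 on chromosome 16 (1.45 Mb, 6.19) and between Plpp3 and Usp24 on chromosome 4 (1.08 Mb, 8.31). Of the genes at these borders, Adamts5 alone was among the genes named for 9 or more peaks. Nmbr encodes the neuromedin B receptor, Cited2 a transcriptional co-regulator and Plpp3 a lipid phosphate phosphatase.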
